A study of Homo sapiens with 24 samples.

Results

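A list of 35 genes that encode centromere and kinetochore proteins was followed across 24 arrays of BT-474 cells. Members were taken by gene symbol (older aliases included), and each gene was represented by the probe set annotated to that gene alone with the highest mean level over all arrays. All 35 of 35 listed genes had such a probe set, out of 19775 genes on the array, and all 35 were among the 14335 genes tested, which had a log2 level of at least 5 on at least 3 arrays. For 31 of them every array reached that floor. CENPK reached it on 21 arrays, CENPI and SKA1 on 12 and SGO1 on 10, so these 4 passed partly or wholly through the control siRNA arrays, where they were higher.

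The centromere is the chromosomal site marked by nucleosomes that carry the histone H3 variant CENP-A, and the kinetochore is the protein assembly built on it that holds spindle microtubules during mitosis. A constitutive network of inner proteins stays on the CENP-A chromatin through the cell cycle, and the outer KNL1-MIS12-NDC80 network, which contacts microtubules, is assembled for mitosis. The spindle checkpoint holds anaphase until every kinetochore is attached, and the chromosomal passenger complex corrects faulty attachments. Many of these genes are transcribed mainly in dividing cells, with mRNA that is highest in late S phase, G2 and mitosis.

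BT-474 is an established human breast cancer cell line of luminal type that carries an amplified ERBB2 gene, which encodes the receptor HER2. Cells received control siRNA or HER2 siRNA and were then treated for 4 h or 24 h, either with estrogen at 10 nM or with the vehicle alone, ethanol at 0.001%. The 8 groups were therefore control siRNA with vehicle at 4 h, control siRNA with estrogen at 4 h, the same pair at 24 h, and the corresponding 4 groups with HER2 siRNA, each with 3 arrays. No label states that the replicates came from different cultures; the p-values therefore reflect the spread between these arrays, which may be technical. In addition, the siRNA sequences, the number of siRNAs and the culture medium are not given in the sources used here.

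Array medians lay between 5.28 and 5.36 on the log2 scale. The targeted gene, ERBB2, had a lowest, median and highest log2 level of 13.39, 13.60 and 13.94 on the 12 control siRNA arrays and 11.86, 12.33 and 12.69 on the 12 HER2 siRNA arrays. The siRNA arms did not overlap, and the averaged log2 difference was -1.34 (SE 0.06; limma adjusted p = 1.11e-14), so a reduced level of ERBB2 mRNA remained measurable in the HER2 siRNA groups. All 7 luminal epithelial markers examined were above the floor on every array, with gene means between 9.01 and 13.42. Among 4 leukocyte markers PTPRC averaged 3.89 and 3.77, CD14 3.90 and 3.88 and CD3E 5.30 and 5.26 (control and HER2 siRNA), whereas LYZ averaged 4.31 with control siRNA and 5.38 with HER2 siRNA. Among 4 fibroblast markers COL1A1 averaged 9.41 and 9.76, with COL3A1, COL1A2 and PDGFRB below 5. Among 3 endothelial markers VWF averaged 7.44 and 7.12 and PECAM1 5.84 and 5.77, with CDH5 near 3.5. The part of any such cells in the results was not tested. One HER2 siRNA array with estrogen at 4 h (replicate 3) has a source label of 24 h against 3 other labels of 4 h, and was kept at 4 h.

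With HER2 siRNA the centromere and kinetochore transcripts were lower almost as a block. Averaged over both treatments and both times, 35 of 35 genes were lower and past the threshold (limma with Benjamini-Hochberg adjustment over 14335 genes, adjusted p under 0.05), where 29.1% of all tested genes were called lower and 59.2% called in either direction. The median log2 difference of the 35 genes was -1.44, against -0.00 over all tested genes, and it ranged from -2.30 for SPC25 to -0.11 for NSL1. In 27 of 35 the fall was at least 2-fold, a size that 2.32% of all tested genes reached downwards. For 31 of 35 every HER2 siRNA array lay below every control siRNA array, where 8.69% of tested genes were separated in that direction, and the exceptions were INCENP, DSN1, MIS12 and NSL1. The 4 genes that did not reach the floor on every array could pass the filter through the control siRNA arrays, so the counts were also taken over the 31 that did. Of these, 31 of 31 were called lower (31.6% of the 12415 tested genes at the floor on every array were), 24 at least 2-fold lower (2.43%), and 27 had no overlap (9.65%). In whole-population RNA, fewer cells in the phases that express these genes and less mRNA per cell cannot be told apart.

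**Figure D1:**
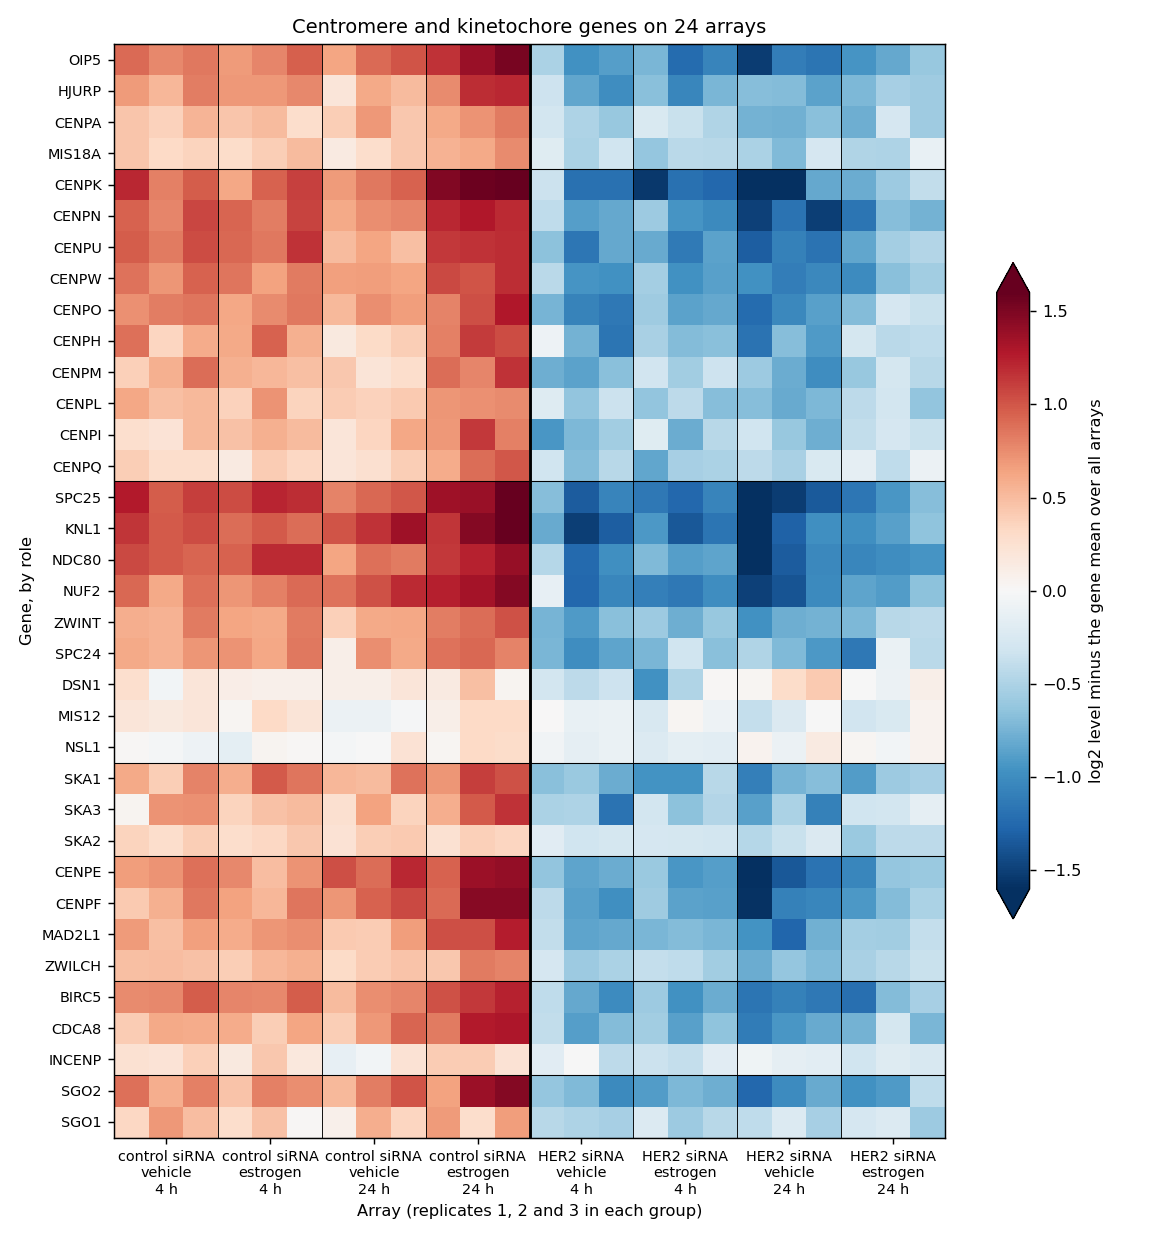
Colour map of the 35 genes (rows, grouped by role) on the 24 arrays (columns, replicates 1 to 3 of each group), showing the log2 level of each gene minus its mean over all arrays; red is above the mean and blue below it, and colours saturate beyond the ends of the scale. The 12 control siRNA arrays on the left are red and the 12 HER2 siRNA arrays on the right blue for most rows, the control siRNA arrays with estrogen at 24 h hold the deepest red, and the DSN1, MIS12 and NSL1 rows are pale.

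A difference in RNA state moved with the siRNA arms. The 3' minus 5' log2 difference of the GAPDH control probe sets, which grows as cDNA becomes shorter or RNA more degraded, averaged 0.305 ± 0.066 (SD, n = 12) over the control arrays. Over the HER2 siRNA arrays it averaged 0.443 ± 0.060 (SD, n = 12). With that difference as a covariate the median of the 35 genes was -1.29, and 33 of 35 were still past the threshold. The 2 lost were DSN1 (adjusted p = 0.297) and NSL1 (adjusted p = 0.567), and the part of RNA state in the result was not tested further.

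Promoter sequence was available for 29 of the 35 genes in the RefSeq set for GRCh38.p14, as windows of 250 bases before to 50 bases after the annotated gene start. The windows were searched on both strands, each motif on its own so that matches may overlap, for 3 elements known from cell-cycle promoters: the cell cycle genes homology region in the form TTTGAA or the form TTCGAA, the CCAAT box (CCAAT), and E2F sites, whose forms were TTCCCGC, its variant TTGGCGC, its variant TTCGCGC and its variant TTGCCGC. A homology region form was present in 17 of 29 windows (58.6%), against 16.8% of 27305 promoters in the whole set and 11.7% of the 11448 that belong to tested genes. CCAAT was present in 20 of 29 (69.0%, against 35.6% and 35.8%), an E2F form in 12 of 29 (41.4%, against 12.8% and 18.6%), and both a homology region form and CCAAT in 12 of 29 (41.4%, against 6.63% and 4.88%). No entry was found for CENPL, MIS18A, BIRC5, KNL1, CENPM and CENPH, and 4 windows (CENPE, DSN1, CENPI and NSL1) held none of these letters. A match is a description of the letters and not evidence of binding.

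The stretches below show what such a promoter looks like in the genes with the largest and the smallest HER2 siRNA difference among those with an entry, preceded by CENPA, the histone that defines the centromere. Each runs from 190 bases before to 10 bases after the gene start, 5′ to 3′ on the strand of the gene, and capitals mark the matches on either strand (on the other strand CCAAT reads as ATTGG, the homology region form TTTGAA reads as TTCAAA, and the first E2F form reads as GCGGGAA).
CENPA: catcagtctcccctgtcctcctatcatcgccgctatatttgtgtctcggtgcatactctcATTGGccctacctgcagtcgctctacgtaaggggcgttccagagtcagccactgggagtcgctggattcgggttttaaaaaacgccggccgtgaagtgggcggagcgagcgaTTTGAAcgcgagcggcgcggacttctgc
SPC25: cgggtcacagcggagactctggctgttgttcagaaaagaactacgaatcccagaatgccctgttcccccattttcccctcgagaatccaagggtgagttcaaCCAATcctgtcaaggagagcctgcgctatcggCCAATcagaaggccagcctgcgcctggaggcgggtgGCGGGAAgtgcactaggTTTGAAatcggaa
CENPK: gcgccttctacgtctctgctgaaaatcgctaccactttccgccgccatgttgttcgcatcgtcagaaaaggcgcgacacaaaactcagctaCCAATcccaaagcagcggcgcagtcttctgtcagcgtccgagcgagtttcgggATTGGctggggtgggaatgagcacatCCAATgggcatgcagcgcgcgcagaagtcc
NDC80: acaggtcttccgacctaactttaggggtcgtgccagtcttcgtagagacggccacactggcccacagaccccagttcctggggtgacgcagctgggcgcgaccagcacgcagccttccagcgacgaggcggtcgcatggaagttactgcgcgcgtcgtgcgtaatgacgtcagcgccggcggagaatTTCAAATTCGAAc
DSN1: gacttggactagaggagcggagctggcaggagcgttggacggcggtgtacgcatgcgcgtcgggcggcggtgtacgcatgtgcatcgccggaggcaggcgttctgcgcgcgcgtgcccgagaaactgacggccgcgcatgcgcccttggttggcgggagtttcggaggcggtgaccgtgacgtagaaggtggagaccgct
MIS12: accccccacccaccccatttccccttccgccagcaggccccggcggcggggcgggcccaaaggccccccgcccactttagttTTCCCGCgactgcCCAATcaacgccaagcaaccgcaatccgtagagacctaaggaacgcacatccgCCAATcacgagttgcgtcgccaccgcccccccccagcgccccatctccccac
NSL1: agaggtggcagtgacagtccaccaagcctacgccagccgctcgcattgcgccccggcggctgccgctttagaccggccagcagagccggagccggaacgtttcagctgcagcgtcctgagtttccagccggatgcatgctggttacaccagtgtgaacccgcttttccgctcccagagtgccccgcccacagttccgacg
The printed stretches lie at chr2:26785866-26786065 on the plus strand (CENPA), chr2:168890421-168890620 on the minus strand (SPC25), chr5:65563159-65563358 on the minus strand (CENPK), chr18:2571367-2571566 on the plus strand (NDC80), chr20:36773754-36773953 on the minus strand (DSN1), chr17:5486184-5486383 on the plus strand (MIS12) and chr1:212791768-212791967 on the minus strand (NSL1). In these stretches SPC25 carries 2 CCAAT boxes, an E2F form and a homology region form that begins 3 bases before the start. NDC80 has its 2 homology region forms side by side across the start, CENPA has one that begins 18 bases before it, and CENPK has 3 CCAAT boxes and no homology region form. MIS12, whose siRNA difference was among the smallest, also carries 2 CCAAT boxes and an E2F form.

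The CENP-A group holds the centromeric histone itself, its chaperone HJURP, and MIS18A and OIP5 (also called MIS18 beta), the MIS18 subunits that license the deposition of new CENP-A. All 4 fell with HER2 siRNA, with a median averaged log2 difference of -1.24. OIP5 fell the most: its lowest, median and highest log2 levels were 8.59, 8.87 and 9.48 on the control siRNA arrays and 6.44, 7.002 and 7.46 on the HER2 siRNA arrays, a difference of -1.92 (SE 0.07; limma adjusted p = 3.35e-15). The arms did not overlap, and the HER2 siRNA maximum stayed more than 1 log2 unit below the control minimum. MIS18A fell the least in this group, from 9.13, 9.41 and 9.75 to 8.28, 8.53 and 8.88 (-0.85, SE 0.06), again without overlap. CENPA itself went from 8.14, 8.33 and 8.69 to 7.08, 7.32 and 7.61, a fall of 1.05 on the log2 scale, and HJURP fell by 1.44.

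The constitutive centromere network binds CENP-A nucleosomes and carries the outer kinetochore. All 10 of its members on the list fell, with a median of -1.45. CENPK, a subunit of the CENP-H/I/K/M complex, had control siRNA levels of 6.90, 7.23 and 8.14 (lowest, median, highest) and HER2 siRNA levels of 4.37, 5.08 and 5.93, so that 22.2% of the control level was left on the linear scale (log2 difference -2.17, SE 0.12). The HER2 siRNA levels of CENPK lay around the floor of 5. Its partners CENPH, CENPI and CENPM fell by 1.29, 1.06 and 1.20, and CENPI was below 5 on every HER2 siRNA array. CENPN, which together with CENPL reads the CENP-A nucleosome, fell by 1.91, and CENPL fell by 1.08. CENPU, CENPQ and CENPO belong to the CENP-O/P/Q/U/R complex, which recruits polo-like kinase 1, and they fell by 1.81, 0.86 and 1.61. The other CENPO probe set gave -0.43 (SE 0.08). A second CENPI probe set above the floor gave a smaller fall than the chosen one (-0.65, SE 0.08), and a second CENPL probe set a larger one (-1.40, SE 0.06). By the chosen probe sets CENPQ had the smallest difference in the network, with levels of 7.34, 7.56 and 8.19 against 6.37, 6.77 and 7.11 and no overlap. CENPW, a histone-fold protein that pairs with CENP-T, fell by 1.68.

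The KNL1-MIS12-NDC80 network had both the largest and the smallest differences of all 35 genes. Its microtubule-binding NDC80 complex is made of NDC80, NUF2, SPC24 and SPC25, and all 4 subunits fell: SPC25 by 2.30, NDC80 by 2.07, NUF2 by 1.99 and SPC24 by 1.35. For SPC25 the lowest, median and highest levels were 8.19, 8.54 and 8.996 with control siRNA and 5.73, 6.25 and 6.72 with HER2 siRNA, so 20.2% of the control level was left (95% interval 18.3 to 22.4%; limma adjusted p = 1.34e-16). KNL1, the scaffold that docks the BUB checkpoint proteins, fell by 2.28, and its partner ZWINT fell by 1.40. The KNL1 value depends on the probe set: the other KNL1 probe set that passed the filter gave -1.74, and the mean over all 4, of which 2 did not pass, gave -1.15.

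The 3 subunits of the MIS12 complex on the list, which link the inner centromere to NDC80, moved little. DSN1 had an averaged log2 difference of -0.29 (SE 0.08; limma adjusted p = 0.00371), MIS12 one of -0.27 (SE 0.05) and NSL1 one of -0.11 (SE 0.04; limma adjusted p = 0.0308). NSL1 levels were 9.39, 9.56 and 9.86 with control siRNA and 9.32, 9.46 and 9.69 with HER2 siRNA, so the arms overlapped over most of their range and 92.5% of the control level was left. The NSL1 call was also lost with quantile normalisation (adjusted p = 0.0876) and on leaving out any of 8 single arrays. A second NSL1 probe set above the floor went the other way (0.13, adjusted p = 0.0234). MIS12 levels were 8.56, 8.83 and 8.98 against 8.28, 8.55 and 8.72, and also overlapped.

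The SKA complex, which holds kinetochores on depolymerising microtubule ends, fell in all 3 subunits. SKA1 had levels of 5.81, 6.17 and 6.52 with control siRNA and 4.33, 4.70 and 4.97 with HER2 siRNA, a log2 difference of -1.49 (SE 0.08) that ends below the floor. SKA3 fell by 1.13. SKA2 had a small but tightly measured difference with its chosen probe set, from 12.82, 12.94 and 13.01 to 11.98, 12.28 and 12.41 (-0.68, SE 0.04, limma adjusted p = 1.01e-12), with no overlap. Its other probe set, with a mean level of 10.22, gave -1.05 (SE 0.06), so the size depends on the probe set.

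Among the corona and checkpoint genes all 4 fell, with a median of -1.59. CENPE is the kinesin that moves chromosomes to the metaphase plate, and its levels were 7.25, 7.63 and 8.15 with control siRNA and 5.13, 5.88 and 6.16 with HER2 siRNA (-1.85, SE 0.07; limma adjusted p = 3.71e-15). CENPF, a large corona protein that builds up in G2, fell by 1.73, and MAD2L1, which encodes the checkpoint effector MAD2, fell by 1.45. ZWILCH, a subunit of the RZZ complex that brings dynein and MAD1 to the kinetochore, had the smallest fall of the 4 by the chosen probe sets, from 8.89, 9.07 and 9.42 to 7.79, 8.07 and 8.32 (-1.02, SE 0.05). The other ZWILCH probe set gave -1.58 (SE 0.08). None of these 4 genes overlapped between the siRNA arms.

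The chromosomal passenger complex places the kinase Aurora B at the inner centromere. BIRC5 (survivin) had levels of 9.01, 9.28 and 9.74 with control siRNA and 7.30, 7.61 and 8.09 with HER2 siRNA, a fall of 1.73 on the log2 scale, and CDCA8 (borealin) fell by 1.44. INCENP, the scaffold of the complex, changed far less, from 5.82, 6.17 and 6.37 to 5.52, 5.75 and 5.94 (-0.45, SE 0.05), and its arms overlapped. The shugoshins protect centromeric cohesion: SGO2 fell by 1.68, from 7.50, 7.85 and 8.51 to 5.79, 6.19 and 6.64, and SGO1 by 0.82, from 4.93, 5.31 and 5.60 to 4.32, 4.46 and 4.68. SGO1 was below 5 on every HER2 siRNA array and on 2 control arrays, so its difference is measured near the lower end of the scale.

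**Figure D2:**
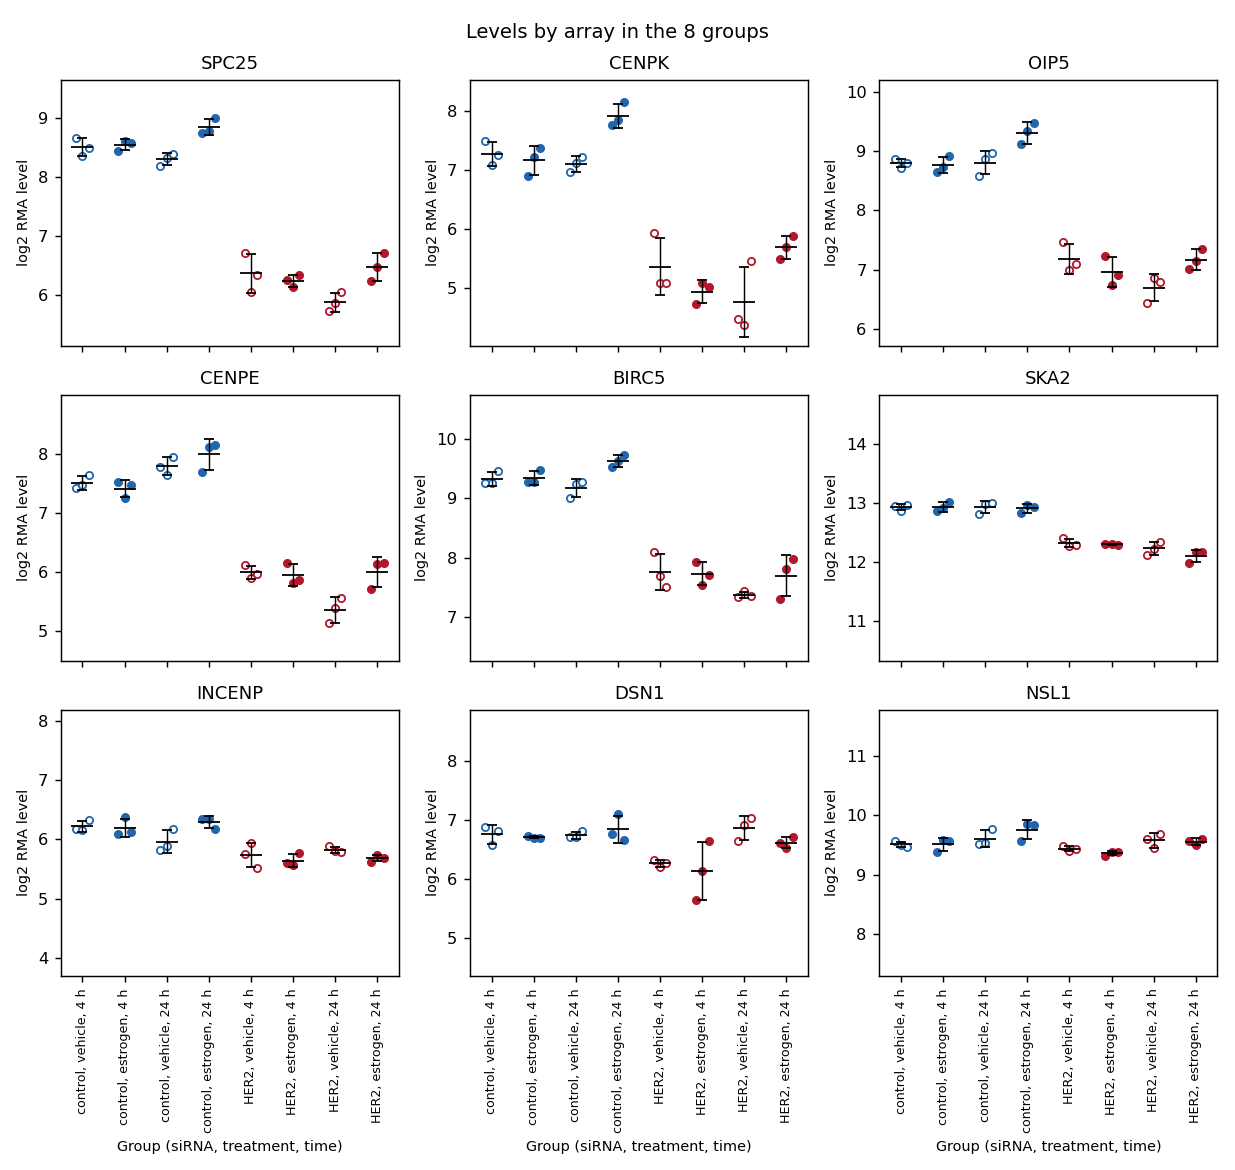
Log2 RMA levels of 9 of the genes on each array (points; blue control siRNA, red HER2 siRNA; open vehicle, filled estrogen) in the 8 groups, with the group mean and SD of 3 arrays as bars; every panel spans the same number of log2 units. SPC25, CENPK, OIP5, CENPE, BIRC5 and SKA2 are separated by siRNA in every condition. INCENP overlaps between the siRNAs with vehicle at 24 h, DSN1 overlaps at 24 h with vehicle and with estrogen, and NSL1 stays at about 9.5 throughout.

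The lower levels were present in each of the 4 conditions. With vehicle at 4 h, 33 of 35 genes were called lower (17.8% of all tested genes were), with a median log2 difference of -1.37. With vehicle at 24 h 31 were called lower (21.8%; median -1.37). Under estrogen 34 were called lower at 4 h (17.3%; median -1.35) and 33 at 24 h (20.5%; median -1.48). The genes that missed the threshold came from a set of 4. NSL1 missed it in all 4 conditions, with differences between -0.20 and -0.03, MIS12 missed it with vehicle at 4 h (-0.25) and 24 h (-0.13), DSN1 with vehicle at 24 h (0.12) and estrogen at 24 h (-0.23), and INCENP with vehicle at 24 h (-0.14). With vehicle at 4 h the DSN1 call was lost with the GAPDH covariate and on leaving out any of 4 single arrays (limma adjusted p up to 0.106). With estrogen at 4 h the DSN1 and MIS12 calls were lost in 7 alternative fits counted over both genes, so not with the GAPDH covariate alone. They were also lost on leaving out single arrays, with limma adjusted p up to 0.184 for MIS12.

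For DSN1 the times looked different. With vehicle at 4 h its levels were 6.89, 6.58 and 6.82 with control siRNA and 6.32, 6.20 and 6.28 with HER2 siRNA. At 24 h they were 6.71, 6.72 and 6.82 against 6.65, 6.91 and 7.04, so with vehicle the gap at 4 h was absent at 24 h. With estrogen at 4 h they were 6.73, 6.70 and 6.71 against 5.65, 6.14 and 6.64. With estrogen at 24 h they were 6.77, 7.10 and 6.67 against 6.62, 6.52 and 6.72. Averaged over vehicle and estrogen, the difference of the siRNA effects between the times was 0.48 (SE 0.16), which did not pass the threshold (limma adjusted p = 0.122).

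**Figure D3:**
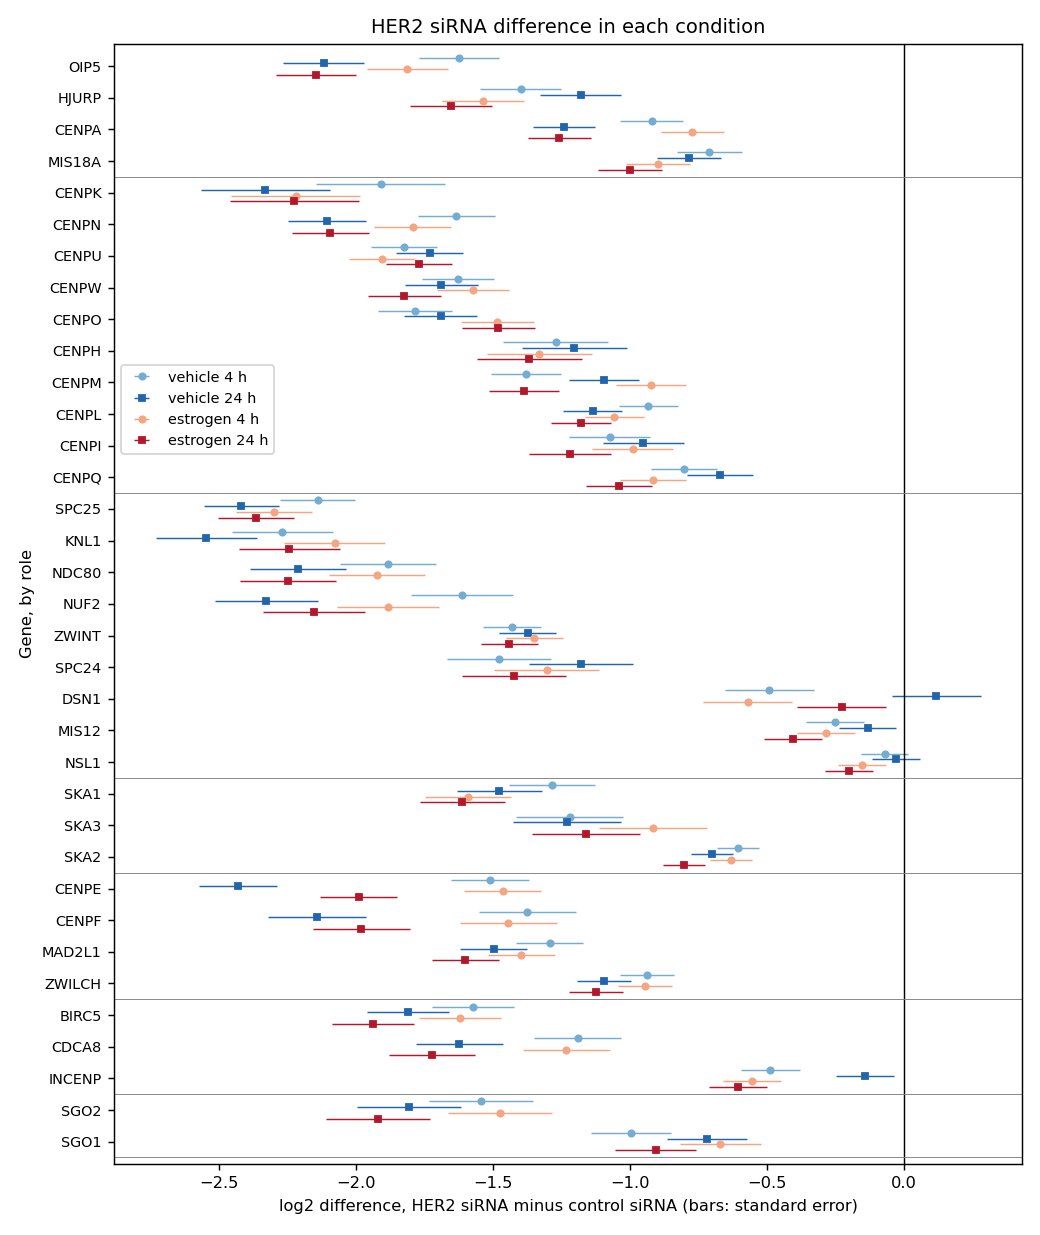
Log2 difference of HER2 siRNA minus control siRNA for each gene (rows, grouped by role) with vehicle (blue) and estrogen (red or orange) at 4 h (circles) and 24 h (squares), with the standard error of the limma fit as bars. Most genes lie between -2.5 and -0.6 in all 4 conditions, and DSN1, MIS12 and NSL1 lie to the right of that range. DSN1 lies further left at 4 h than at 24 h, whereas CENPE and CENPF lie further left at 24 h than at 4 h.

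Whether the siRNA difference grew between 4 h and 24 h was tested directly, averaged over vehicle and estrogen. By the chosen probe sets, 2 of the 35 genes were more strongly lowered at 24 h and none less strongly. Of all tested genes 1.22% were called in the first direction and 2.95% in either. An unadjusted p under 0.05 was reached by 8 of 35, against 16.6% of all tested genes. CENPE with vehicle was 7.41, 7.46 and 7.63 at 4 h and 7.78, 7.64 and 7.95 at 24 h with control siRNA, and 6.11, 5.90 and 5.96 at 4 h and 5.13, 5.39 and 5.56 at 24 h with HER2 siRNA. With vehicle the control arrays were thus higher at the later time and the HER2 siRNA arrays lower. With estrogen CENPE was 7.51, 7.25 and 7.47 at 4 h and 7.69, 8.12 and 8.15 at 24 h with control siRNA, and 6.15, 5.81 and 5.87 and then 5.71, 6.12 and 6.16 with HER2 siRNA, so there the HER2 siRNA arrays overlapped between the times and the control arrays were higher at 24 h. The siRNA difference went from -1.51 to -2.43 with vehicle and from -1.46 to -1.99 with estrogen. The change of -0.72 (SE 0.14, 95% interval -1.02 to -0.43; limma adjusted p = 0.00812) kept its call under every alternative setting and every single array left out, with adjusted p between 0.00244 and 0.0189.

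CENPF had the second such call, with a change of -0.65 (SE 0.18; limma adjusted p = 0.0492). Its vehicle levels were 9.06, 9.20 and 9.48 at 4 h and 9.34, 9.58 and 9.69 at 24 h with control siRNA, against 8.21, 7.76 and 7.65 and then 7.05, 7.55 and 7.58 with HER2 siRNA. With vehicle the HER2 siRNA arrays at 24 h lay below those at 4 h without overlap. With estrogen the HER2 siRNA arrays were 8.07, 7.77 and 7.76 at 4 h and 7.71, 7.94 and 8.13 at 24 h and overlapped, while the control arrays were 9.28, 9.16 and 9.49 and then 9.54, 10.09 and 10.09 and did not. The call stood close to the threshold and was lost in 5 alternatives and on leaving out any of 18 single arrays, with adjusted p up to 0.0940. CENPA was next, with a change of -0.40 (limma adjusted p = 0.0591).

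Estrogen did not change these genes detectably at 4 h. With control siRNA 0 of 35 passed the threshold (limma, 0.342% of all tested genes did) and 0 had an unadjusted p under 0.05 (3.92%). With HER2 siRNA 0 of 35 passed (0.698%) and 1 had an unadjusted p under 0.05 (7.41%). The median log2 differences were 0.00 and -0.03.

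At 24 h estrogen raised part of the group in control siRNA cells. There 16 of 35 genes were called higher and 0 lower (7.01% of all tested genes were called higher, 13.5% in either direction), 34 of 35 differences were positive, and the median was 0.38 against -0.01 over all tested genes. In 21 of 35 all 3 estrogen arrays lay above all 3 vehicle arrays, where 14.5% of tested genes did. The constitutive centromere network accounted for 9 of the 16: CENPK (0.82), CENPH (0.71), CENPM (0.64), CENPU (0.62), CENPQ (0.55), CENPN (0.51), CENPI (0.50), CENPW (0.43) and CENPL (0.33), with CENPO at 0.39 and past the threshold only before adjustment. The others were HJURP (0.61), MAD2L1 (0.61), SPC25 (0.54), OIP5 (0.50), BIRC5 (0.45), ZWINT (0.37) and INCENP (0.33). No gene of the SKA complex, the MIS12 complex or the shugoshins was called. Other probe sets above the floor, adjusted over probe sets, did not always give the same call. CENPI gave 0.18 (limma adjusted p = 0.583), CENPL gave 0.35 (0.0744) and BIRC5 gave 0.51, 0.26 and 0.12 (0.0607, 0.240 and 0.785). With this adjustment the chosen probe sets of BIRC5, CENPL and INCENP missed the threshold too (limma adjusted p = 0.0640, 0.0629 and 0.0614). For BIRC5 and CENPL a miss on another probe set is therefore partly a matter of the adjustment. MIS18A, not called, gave 0.44 on a second probe set (limma adjusted p = 0.00307). The further probe sets of CENPN, CENPU and MAD2L1 above the floor passed.

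The individual arrays show how small these changes are. CENPM was 7.46, 7.24 and 7.31 with vehicle and 7.93, 7.81 and 8.19 with estrogen at 24 h (0.64, SE 0.13; limma adjusted p = 0.00167). CENPU was 11.35, 11.48 and 11.34 against 11.98, 12.01 and 12.04, and its groups were far apart for their spread (0.62, SE 0.12; limma adjusted p = 0.00138). MAD2L1 was 10.33, 10.33 and 10.58 against 10.95, 10.95 and 11.17, and CENPQ 7.39, 7.45 and 7.59 against 7.80, 8.09 and 8.19, both without overlap. BIRC5, at 9.01, 9.25 and 9.28 against 9.53, 9.63 and 9.74, passed only narrowly (limma adjusted p = 0.0497).

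The count of 16 is not stable, although the direction was positive in almost all genes. CENPM, CENPQ, CENPU and MAD2L1 kept their call in every setting and with every array left out. Replicate 1 of both control siRNA groups at 24 h carries a separate series number in the labels, as does HER2 siRNA with estrogen at 4 h replicate 1. The number is thus on both sides of this estrogen comparison. It is on the control side only in the siRNA comparisons at 24 h, and on the HER2 siRNA side only with estrogen at 4 h. It is therefore also uneven in the siRNA difference at 24 h minus 4 h. Without the 3 arrays so numbered the count was 6. Within that series the median of the 35 differences was 0.412 (34 of 35 positive), and within the other numbers it was 0.422 (33) and 0.403 (32). Leaving out control siRNA with vehicle replicate 1 gave 4 calls and its replicate 2 gave 9, and leaving out control siRNA with estrogen replicate 2 gave 8 and its replicate 3 gave 6. The GAPDH 3' minus 5' difference was 0.362 ± 0.083 (SD, n = 3) with vehicle and 0.267 ± 0.011 (SD, n = 3) with estrogen, and with it as a covariate 6 genes were called; its part in the result was not tested further.

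With HER2 siRNA 7 of 35 genes were called higher with estrogen at 24 h and 0 lower (4.28% of all tested genes were called higher), and 31 of 35 differences were positive, with a median of 0.31. These were CENPK (0.92), CENPE (0.64), CENPO (0.60), SPC25 (0.59), CENPU (0.58), CENPN (0.53) and MAD2L1 (0.51). CENPK was 4.47, 4.37 and 5.45 with vehicle and 5.49, 5.69 and 5.88 with estrogen, so its difference is measured from levels around the floor of 5. SPC25 was 5.73, 5.87 and 6.05 with vehicle and 6.24, 6.47 and 6.72 with estrogen, without overlap (limma adjusted p = 0.00943). CENPE was 5.13, 5.39 and 5.56 against 5.71, 6.12 and 6.16, also without overlap. CENPU alone kept its call in every setting. The count was 1 when only the 2 groups compared were fitted, and 3 without HER2 siRNA with vehicle replicate 1, 4 without HER2 siRNA with estrogen replicate 2 and 2 without its replicate 3. The GAPDH difference was 0.461 ± 0.047 (SD, n = 3) with vehicle and 0.451 ± 0.019 (SD, n = 3) with estrogen.

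**Figure D4:**
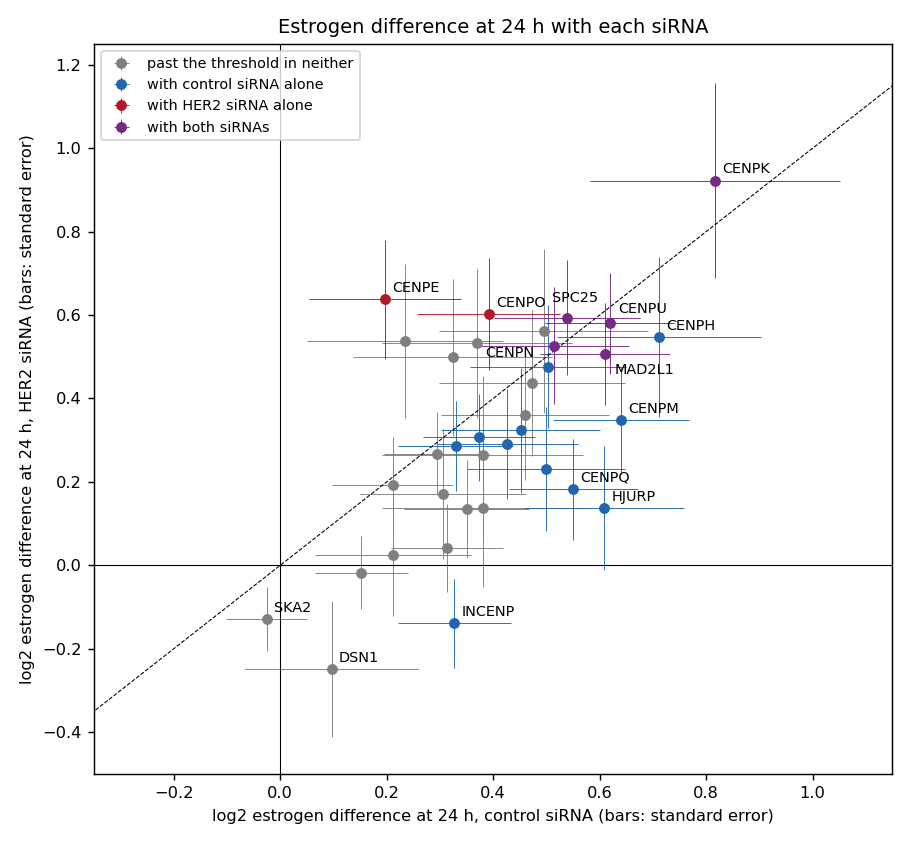
Log2 difference of estrogen minus vehicle at 24 h for each of the 35 genes with control siRNA (horizontal) and HER2 siRNA (vertical), with standard errors of the limma fit as bars, coloured by where the gene passed the threshold; the dashed line marks equal differences. Most points lie above 0 on both axes and on both sides of the line, CENPK is highest on both axes, and INCENP, DSN1, SKA2 and NSL1 lie below 0 with HER2 siRNA.

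The estrogen difference itself was not distinguishable between the siRNA arms. At 24 h 0 of 35 genes passed the test of the difference (limma, 0.0628% of all tested genes did) and 4 had an unadjusted p under 0.05 (6.04%). INCENP came closest, with an estrogen difference of 0.33 with control siRNA and -0.14 with HER2 siRNA (difference -0.47, 95% interval -0.78 to -0.15; limma adjusted p = 0.494). INCENP was 5.82, 5.90 and 6.18 with vehicle and 6.35, 6.35 and 6.17 with estrogen in control siRNA cells, and 5.88, 5.81 and 5.78 against 5.62, 5.74 and 5.69 in HER2 siRNA cells. HJURP had a difference of -0.47, CENPE of 0.44 (95% interval 0.02 to 0.86) and CENPQ of -0.37. The intervals of the 35 genes reached from -0.91 to 0.86, so differences of that size cannot be set aside with 3 arrays per group. At 4 h 0 of 35 passed (limma, 0% of all tested genes) and 1, CENPM, had an unadjusted p under 0.05 (2.81%).

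The growth of the estrogen difference from 4 h to 24 h was positive for 34 of 35 genes with control siRNA (median 0.39) and 28 of 35 with HER2 siRNA (median 0.31). With control siRNA 1 of 35 passed the test (1.28% of all tested genes did): CENPM, with a change of 0.73 (SE 0.18; limma adjusted p = 0.04999, just inside the threshold). Its 4 h levels were 7.40, 7.60 and 7.93 with vehicle and 7.60, 7.56 and 7.51 with estrogen, so they overlapped, whereas those at 24 h did not. The call was lost in 5 alternatives and on leaving out any of 10 single arrays, with adjusted p up to 0.154. CENPU (0.59), CENPQ (0.57) and MAD2L1 (0.54) followed with limma adjusted p of 0.0944, 0.112 and 0.148. With HER2 siRNA 0 of 35 passed (limma, 0.516%) and 10 had an unadjusted p under 0.05 (8.03% of all tested genes did). The closest was CENPK (1.34, SE 0.33, limma adjusted p = 0.0716), again from levels around the floor.

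Within each siRNA and treatment, few genes were called between 4 h and 24 h. With control siRNA and vehicle 0 of 35 genes passed (limma, 0.781% of all tested genes did) and 4 had an unadjusted p under 0.05 (14.4%). With control siRNA and estrogen 5 were called higher at 24 h (2.53%): CDCA8 (0.59), CENPE (0.58), OIP5 (0.55), CENPQ (0.53) and MAD2L1 (0.43). With HER2 siRNA and vehicle 3 were called lower (3.43%), namely CENPN (-0.69), CENPE (-0.63) and SPC25 (-0.49), and DSN1 was called higher (0.60; 3.03%). With HER2 siRNA and estrogen CENPQ alone was called, higher by 0.41 (3.06%), a share of the 35 genes near that of all tested genes. None of these time calls held in every setting and with every array left out, and without one array the counts ranged from 0 to 9, 0 to 8 and 0 to 2 in the 3 groups with calls.

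Estrogen did not bring the HER2 siRNA cells to the level of vehicle-treated control cells. At 24 h HER2 siRNA with estrogen was called lower than control siRNA with vehicle for 32 of 35 genes (20.0% of all tested genes), with a median of -1.05, and 20 of 35 were at least 2-fold lower (2.13%). SPC25 was 6.24, 6.47 and 6.72 against 8.19, 8.32 and 8.40 (-1.82, SE 0.14; limma adjusted p = 2.24e-09), and KNL1 was 6.26, 6.37 and 6.59 against 8.25, 8.40 and 8.60 (-2.01, SE 0.18). Both were separated by more than 1 log2 unit. CENPQ was closest among the called genes of the constitutive network, at 7.06, 6.79 and 7.11 against 7.39, 7.45 and 7.59 (-0.49, SE 0.12). DSN1 (-0.13), MIS12 (-0.09) and NSL1 (-0.05) missed the threshold, and 30 calls held in every setting, with INCENP and SKA3 lost in some. This comparison shares its arrays with those above.

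Other probe sets of the same genes were examined where the array has them. For 16 of the 35 genes there were 30 further probe sets, of which 22 were above the floor. With HER2 siRNA 20 of the 22 were lower and past the threshold. The exceptions were the NSL1 probe set named above and one for SPC24, which did not move (-0.00, adjusted p = 0.991) while the chosen SPC24 probe set fell by 1.35. The siRNA difference at 24 h minus 4 h depended on the probe set too, here with adjustment over probe sets. A second KNL1 probe set above the floor gave -0.74 (limma adjusted p = 0.0159), against -0.22 for the chosen one. No other further probe set passed. For CENPF the limma adjusted p was 0.0567 with the chosen probe set and 0.0888 with the second above the floor.

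Of 26 other centromere, kinetochore and checkpoint genes, 23 had a probe set of their own and were tested, and 17 were called lower with HER2 siRNA on average, 3 higher and 3 neither, with a median log2 difference of -0.45 (29.1% of all tested genes were called lower and 30.1% higher). The checkpoint kinase BUB1 had a difference of -2.10, Aurora B (AURKB) one of -1.75, the AAA ATPase TRIP13 one of -1.72, the kinase TTK (MPS1) one of -1.69 and BUB1B one of -1.68, all past the threshold. Genes of the inner centromere outside the list went both ways: CENPC, the DNA-proximal scaffold of the network, rose by 0.30 (SE 0.06; limma adjusted p = 1.61e-04), CENPX (-0.45), CENPB (-0.27) and CENPV (-0.15) were called lower, and CENPT (-0.01) and ITGB3BP, which encodes CENP-R (0.05), missed the threshold. PMF1, the subunit that completes the MIS12 complex with DSN1, MIS12 and NSL1, also missed it (-0.04, SE 0.04). BOD1 (0.33) and MAD2L1BP, which encodes the MAD2 inhibitor p31comet (0.14), rose. With estrogen at 24 h, 8 of 23 were called higher with control siRNA (7.01% of all tested genes were) and 5 with HER2 siRNA (4.28%), and 0 lower in either (limma).

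The kinetochore genes were set beside 2 other groups of cell-cycle genes. All 10 genes of the MCM2-7 and GINS replicative helicase fell with HER2 siRNA (median -1.18), as did all 11 mitotic kinesins (median -1.75), where 29.1% of all tested genes were called lower. With estrogen at 24 h in control siRNA cells, 9 of 10 helicase genes were called higher (median 0.63), 16 of 35 kinetochore genes (median 0.38) and 4 of 11 kinesins (median 0.25), against 7.01% of all tested genes; the 16 ranged from 4 to 18 on leaving out single arrays. The change of the siRNA difference from 4 h to 24 h had medians of 0.13, -0.13 and -0.51, with 0, 2 and 3 genes called lower (1.22% of all tested genes). These are counts and medians of the same arrays, and the difference between the groups of genes was not tested.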

How the data were processed

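Total RNA was measured on 24 Affymetrix HG-U133 Plus 2.0 arrays. The deposited values are log2 levels per probe set, made by the authors with RMA per the submitters' processing notes; the version, and whether all arrays were run together, are not given in the sources used here. RMA sets array distributions nearly equal, so a change shared by most genes would not show. Every deposited column was used. Of 54675 probe sets, 41091 carry 1 gene symbol in the platform annotation, 1801 several, 11721 none and 62 are controls, and probe sets with several symbols were not used.

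One mean per group was fitted to all 24 arrays with limma 3.58.1 (R 4.3.3), with empirical Bayes moderation and Benjamini-Hochberg adjustment over 14335 genes within each of 19 comparisons, two-sided, with an adjusted p threshold of 0.05. Gene symbols name a gene only as far as its probes do, and array signals carry no counts, so the number of arrays limits the precision. In simulated data for the siRNA comparison with vehicle at 24 h, 98 of 100 genes changed by 1 log2 unit and 59 of 100 changed by 0.5 were recovered among 14335, with 11 false calls. Only these genes were changed, and the noise was normal and independent between arrays. In the data 41.5% of genes were called in that comparison, so the recovered shares describe the simulated setting alone.

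The members and lists were chosen with earlier results of these data known. Values by array are given for ERBB2, for the gene with the largest and the smallest averaged siRNA difference in each of 7 role groups, and for up to 4 genes with the smallest adjusted p in each difference of effects; further genes shown by array (CENPA, KNL1, BIRC5 at 24 h) were chosen after their values were seen. Alternatives were no or a stricter filter (log2 of at least 7), a block for the replicate number, the same block plus a term for the 3 arrays numbered apart, leaving those arrays or each single array out, the mean of probe sets, quantile normalisation, equal medians, the GAPDH 3' minus 5' difference as a covariate, a robust prior with an intensity trend, and fitting only the groups compared. Promoters are from RefSeq GRCh38.p14.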

Additional observations from a re-analysis of the deposited data

Results flagged for a closer look

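CENPE and CENPF stood out because their HER2 siRNA difference was not the same at the 2 times, by a direct test: the siRNA difference at 24 h minus that at 4 h was -0.72 for CENPE (limma adjusted p = 0.00812) and -0.65 for CENPF (limma adjusted p = 0.0492). CENPM stood out because its estrogen difference in control siRNA cells was larger at 24 h than at 4 h, by 0.73 (limma adjusted p = 0.04999). In all 3 the 2 differences compared share no arrays. The calls are for the chosen probe sets. For the siRNA difference a second KNL1 probe set also passed, and a second CENPF probe set did not.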

How the results depend on the processing

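The siRNA calls averaged over conditions numbered 30 to 35 under the alternatives, of the genes each tested. No gene called in a comparison changed sign there under an alternative or without 1 array. Genes that were not called, and so the comparisons without a call, were not examined for a change of sign. Estrogen at 24 h with control siRNA called 6 genes in place of 16 without the 3 arrays numbered apart and 6 with the GAPDH covariate, and with HER2 siRNA 1 in place of 7 when only the groups compared were fitted. For the siRNA difference at 24 h minus 4 h the count was 1 in place of 2 with no filter, the replicate block with number series, equal medians and the GAPDH covariate. For the estrogen difference at 24 h minus 4 h with control siRNA it was 0 in place of 1 with no filter, without the 3 arrays numbered apart, with quantile normalisation and with the GAPDH covariate, and 2 with the replicate block with number series and with only the groups compared; with HER2 siRNA it was 1 in place of 0 with the stricter filter and the replicate block. The time difference with control siRNA and estrogen called 8 in place of 5 with the stricter filter, the replicate block, without the 3 arrays numbered apart and with the mean of probe sets, and 10 with the block and number series. With HER2 siRNA and vehicle it called 0 in place of 4 with only the groups compared. With HER2 siRNA and estrogen it called 0 in place of 1 with no filter, the block and number series, without the 3 arrays numbered apart and with equal medians, and 2 with the stricter filter and the replicate block. Their cause was not tested.

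Without 1 array, the counts ranged from 34 to 35 for the averaged siRNA difference, 32 to 33 with vehicle at 4 h, 31 to 31 with vehicle at 24 h, 32 to 34 with estrogen at 4 h and 33 to 34 with estrogen at 24 h. They ranged from 4 to 18 for estrogen at 24 h with control siRNA and 2 to 9 with HER2 siRNA, from 1 to 3 for the siRNA difference at 24 h minus 4 h, and from 0 to 1 and 0 to 2 for the estrogen difference at 24 h minus 4 h with control and HER2 siRNA. They ranged from 0 to 9, 0 to 8 and 0 to 2 for the time differences with control siRNA and estrogen, HER2 siRNA and vehicle, and HER2 siRNA and estrogen, and from 30 to 32 for HER2 siRNA with estrogen against control siRNA with vehicle; the counts of 0 for estrogen at 4 h, for the differences of estrogen effects and for time with control siRNA and vehicle stayed at 0.

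The labels do not say what a replicate number marks. Of 84 correlations between the deviations of same-numbered replicates 60 exceeded 0.1, with a median of 0.205, a hint from the data of shared deviation. The median for different numbers was -0.083. It adds nothing separate, because deviations from each group's own mean tie it to the same-number value. All 3 correlations exceeded 0.1 in 8 of 28 pairs of groups, so the numbers were not taken as pairs throughout. The replicate block left the averaged siRNA count at 35. Over all tested genes it moved the calls by over 1.5 times in 10 comparisons: estrogen at 4 h with control siRNA (49 to 76) and HER2 siRNA (100 to 153), the difference of estrogen effects at 24 h (9 to 34), the siRNA difference at 24 h minus 4 h (423 to 829), the estrogen difference at 24 h minus 4 h with control siRNA (183 to 450) and HER2 siRNA (74 to 198), and time with control siRNA and vehicle (112 to 448), control siRNA and estrogen (855 to 1437), HER2 siRNA and vehicle (926 to 1670) and HER2 siRNA and estrogen (890 to 1514). Without the 3 arrays numbered apart estrogen at 24 h with control siRNA fell from 1939 calls over all genes to 1151. No scaling moved the median of all genes by over 0.1. CENPK, CENPI, SKA1 and SGO1 are limited by signal near the floor.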
